A study of Mus musculus with 20 samples.

Results

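The 38 genes described here are antioxidant and NRF2 response genes of the mouse liver: targets of the transcription factor NRF2, the glutathione and thioredoxin systems, and the enzymes that remove superoxide and peroxides. They were chosen by symbol from the 36106 genes of the counts table, without the glutathione transferases. The choice rule uses no measured value, though earlier results of these data were known when the list was made. All 38 passed the filter on low counts, which 16164 genes passed. Liver RNA was sequenced from male mice in 4 groups. Sham_Nx mice (n = 4) had a sham operation and were kept in normoxia, Sham_IH mice (n = 5) had a sham operation and intermittent hypoxia, ORX_Nx mice (n = 5) were orchiectomized and kept in normoxia, and ORX_IH mice (n = 5) were orchiectomized and had intermittent hypoxia. Orchiectomy removes the testes, the main source of testosterone in males. Intermittent hypoxia, an exposure to repeated drops in inspired oxygen used as a model of sleep apnoea, lasted 2 weeks. All 4 groups had an operation, and the strain, the age and the interval between operation and exposure are not given in the sources used here. Each library is named by its group and mouse number.

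NRF2, encoded by Nfe2l2, binds antioxidant response elements in the promoters of its target genes. In unstressed cells KEAP1 holds NRF2 in the cytoplasm and passes it to the proteasome, and oxidants or electrophiles that modify cysteines of KEAP1 stop this. The targets make and recycle glutathione and thioredoxin, supply NADPH, reduce quinones and conjugate and export foreign compounds, for which the liver is the main organ. Catalase, superoxide dismutases and several peroxidases work in the same defence but are present in hepatocytes at high levels without stress.

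The antioxidant response element and the androgen receptor half-site are the sequences through which NRF2 and the androgen receptor bind DNA, and both were searched for in the promoters of the members. Of the 38 members, 32 matched a RefSeq promoter window of 300 bases (250 before and 50 after the start, build GRCm38.p6), in 39 windows. Abcc3, Hmox1, Prdx6, Sod3, Gsr and Gclc had no window and were not searched. The core of the antioxidant response element, TGACNNNGC, was found on either strand in 11 of the 39 windows (28.2%), against 12.4% of all 32851 windows. These windows belonged to 10 members: Abcc4, G6pdx, Gclm, Nfe2l2, Pgd, Prdx1, Sod1, Srxn1, Txnrd1 and Ugdh. The half-site AGAACA was found on either strand in 9 of the 39 windows (23.1%), against 19.0% of all windows. Its 9 members were Abcc4, Cat, Ephx1, Gclm, Gpx3, Osgin1, Pgd, Slc7a11 and Txnrd1. In the main analysis below, averaged over both exposures, Abcc4 and Pgd rose after orchiectomy and Cat, Ephx1, Gclm and Txnrd1 fell. Gpx3, Osgin1 and Slc7a11 did not pass there. The motifs were searched separately, and windows of neighbouring starts can overlap. Upstream sequence is shown for 4 members on which the results turn, read 5′ to 3′ on the strand of the gene: Nfe2l2 (chr2:75704664-75704913, minus strand) and Ugdh (chr5:65435953-65436092, minus strand, the first 140 bases of a window that holds 2 matches) with TGACNNNGC in capitals, and Cat (chr2:103485154-103485403, minus strand) and Ephx1 (chr1:181017570-181017819, minus strand) with AGAACA in capitals.
Nfe2l2: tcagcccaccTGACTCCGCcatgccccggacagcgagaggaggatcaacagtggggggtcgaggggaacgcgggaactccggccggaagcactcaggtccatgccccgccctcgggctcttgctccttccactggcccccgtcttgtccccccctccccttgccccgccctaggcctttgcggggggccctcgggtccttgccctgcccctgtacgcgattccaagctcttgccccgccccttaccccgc
Ugdh: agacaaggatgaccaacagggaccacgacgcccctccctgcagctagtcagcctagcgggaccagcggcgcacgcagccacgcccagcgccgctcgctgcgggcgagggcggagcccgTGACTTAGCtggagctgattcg
Cat: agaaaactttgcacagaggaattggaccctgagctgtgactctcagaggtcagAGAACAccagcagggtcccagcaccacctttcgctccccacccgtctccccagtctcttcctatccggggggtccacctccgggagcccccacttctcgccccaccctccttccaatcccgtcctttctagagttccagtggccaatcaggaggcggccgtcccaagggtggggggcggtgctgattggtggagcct
Ephx1: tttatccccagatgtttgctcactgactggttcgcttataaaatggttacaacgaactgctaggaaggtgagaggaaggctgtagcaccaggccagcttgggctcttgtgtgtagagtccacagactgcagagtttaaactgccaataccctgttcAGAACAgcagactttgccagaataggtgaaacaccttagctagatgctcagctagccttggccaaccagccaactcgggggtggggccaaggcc
The match in Nfe2l2 began 240 bases before the start, the first in Ugdh 132, that in Cat 197 and that in Ephx1 94 bases before it. The match is a description of letters in a window, and no binding was measured.

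Depth ran from 29.3 to 69.6 M estimated counts, and a floor of 3 counts was worth 0.108 CPM (counts per 1000000 counts) in the shallowest library. The 7 hepatocyte markers in the table summed to between 68472 and 114219.8 CPM in every library. Several libraries stood apart in genes of other tissues or of inflammation. The 12 skeletal muscle markers summed to 960.0 CPM in ORX_IH 1, 567 in ORX_IH 2, 164 in Sham_Nx 2 and 43.8 in Sham_Nx 3, against 1.12 to 8.35 in the others. The 11 pancreatic acinar markers summed to 1296 CPM in Sham_IH 5, 546 in Sham_Nx 5 and 230.0 in ORX_IH 1, against 4.17 to 25.6 in the others. The 18 acute phase genes summed to 34221 CPM in ORX_Nx 4 and 26134 in ORX_Nx 5, and to 14671 to 23023 in the others. Such a sum is weighted to abundant genes. With each gene weighted alike (mean log2 deviation from the mean of all libraries), ORX_Nx 4 was at 1.81, ORX_Nx 5 at 1.21 and ORX_IH 1 at 1.02. The next was ORX_IH 5 at 0.26. The 11 Kupffer cell and macrophage markers summed to 197 to 322 CPM in Sham_Nx, 176 to 234 in Sham_IH, 266 to 1121 in ORX_Nx and 243 to 384 in ORX_IH. After orchiectomy in normoxia 11 of the 11 macrophage markers, 15 of the 18 acute phase genes and 2 of the 4 tested neutrophil markers rose, and averaged over both exposures 9 of the 11 pancreatic markers fell and 6 of the 10 lymphocyte markers rose. Of the 12 muscle markers 9 rose after orchiectomy under intermittent hypoxia (median log2 fold change 7.84) and 3 fell in normoxia (-4.75), and 3 of the 7 stellate cell markers rose in normoxia. Of all genes tested, 7.88% rose and 6.46% fell after orchiectomy in normoxia. The shares were 1.31% and 1.57% under intermittent hypoxia, and 11.8% and 10.1% averaged over both exposures. In bulk tissue, fewer cells of a type and less RNA per cell cannot be told apart.

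As a share of all counts (mean ± SD over libraries), the members together took 0.842% ± 0.0145 in the 4 Sham_Nx mice and 0.785% ± 0.00666 in the 5 Sham_IH mice. The share was 0.784% ± 0.0586 in the 5 ORX_Nx mice and 0.758% ± 0.0682 in the 5 ORX_IH mice. Catalase (Cat) alone took 0.242% to 0.273% of all counts in the Sham_Nx libraries and 0.235% to 0.262% in Sham_IH. It took 0.143% to 0.218% in ORX_Nx and 0.188% to 0.222% in ORX_IH. The lower share after orchiectomy therefore need not be a fall across the members, and the share without Cat is not given here. Levels of different genes were compared only per length, on the authors' log2 scale, as the mean ± SD over the 19 libraries. Gpx1, the main glutathione peroxidase of the cytosol, had the highest level per length (10.78 ± 0.24), followed by the copper-zinc superoxide dismutase Sod1 (10.24 ± 0.19), catalase (9.92 ± 0.31) and the peroxiredoxin Prdx1 (9.47 ± 0.1). The SDs of Sod1 and Cat, neighbours in this order, overlapped. The lowest were the drug exporter Abcc4 (-0.78 ± 0.57), the carbonyl reductase Cbr3 (-0.86 ± 0.59), the cystine transporter Slc7a11 (-2.64 ± 0.69) and the intestinal glutathione peroxidase Gpx2 (-3.96 ± 1.98). Abcc4 and Cbr3 did not differ beyond their spread. The colour map of all members by library shows these genes relative to Sham_Nx.

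**Figure D1:**
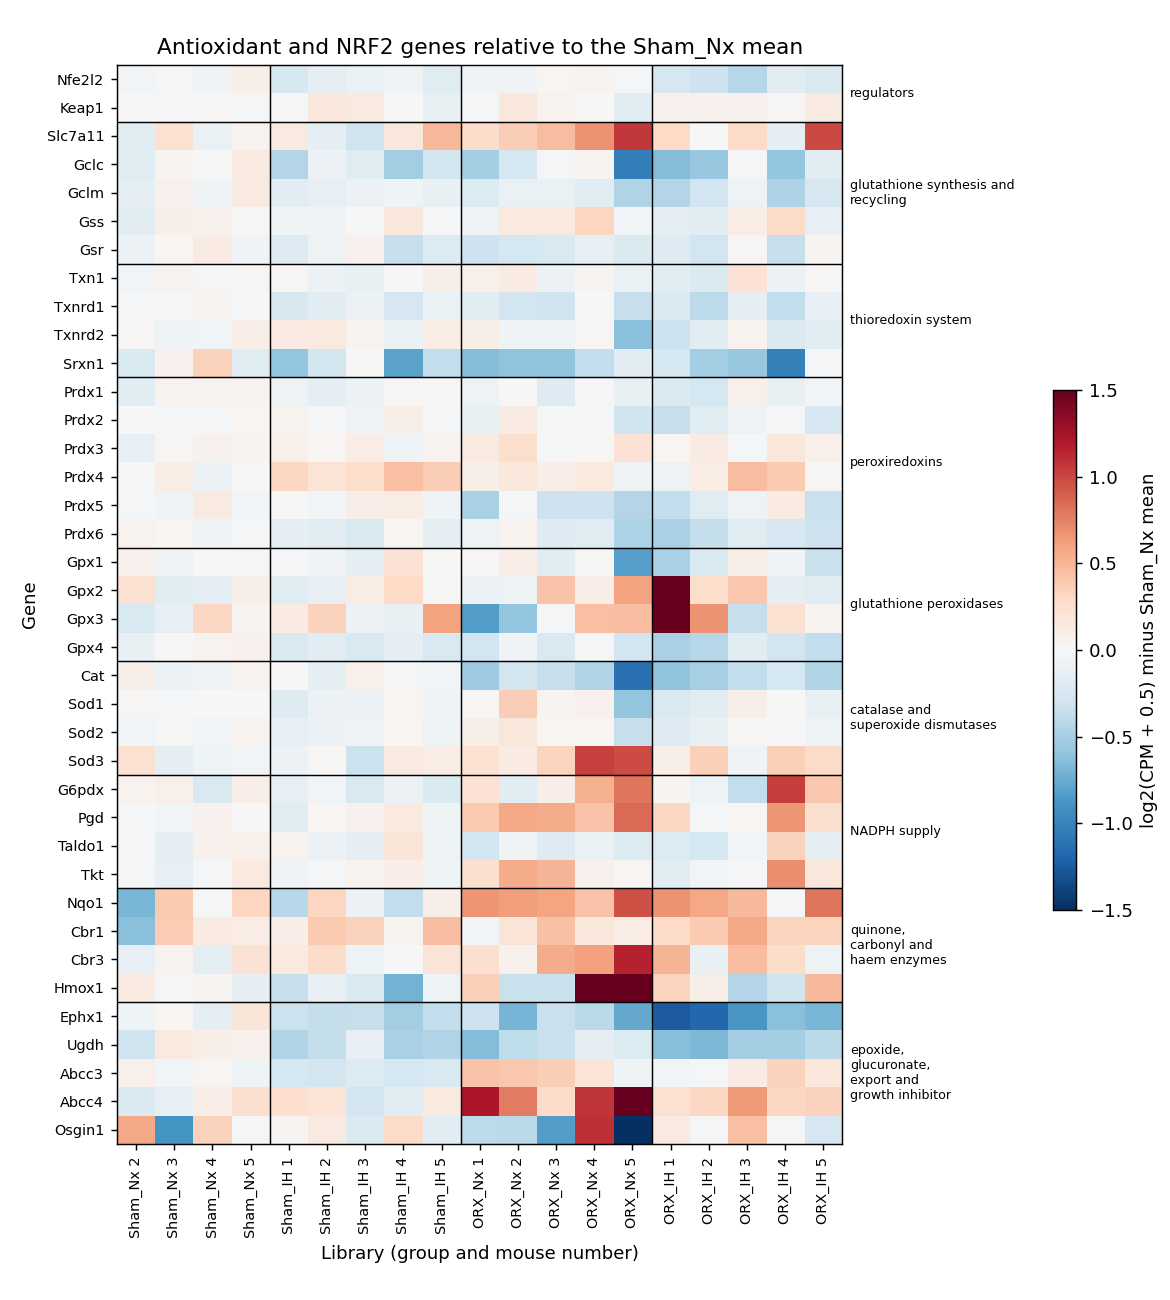
Colour map of the 38 members (rows, grouped by role) in the 19 libraries (columns, by group and mouse), as log2(CPM + 0.5) minus the Sham_Nx mean, with colours ending at 1.5 in each direction. The Abcc4 and Nqo1 rows are redder and the Cat and Ephx1 rows bluer in the ORX columns, and Hmox1 is dark red only in ORX_Nx 4 and ORX_Nx 5.

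Orchiectomy was compared in each exposure and averaged over both. Statements that a member passed or was called refer to the main analysis, unless an alternative is named. Averaged over both exposures, 5 of the 38 members rose and 8 fell at a Benjamini-Hochberg (BH) adjusted p under 0.05 in edgeR's quasi-likelihood F-test. That is 34.2% of the members, against 22.0% of all genes tested, of which 11.8% rose and 10.1% fell. The quinone reductase Nqo1, the exporters Abcc3 and Abcc4, the pentose phosphate enzyme Pgd and the extracellular superoxide dismutase Sod3 rose. Catalase, the epoxide hydrolase Ephx1, the glucuronate-forming enzyme Ugdh, the glutathione synthesis subunit Gclm, the thioredoxin reductase Txnrd1, the peroxiredoxins Prdx5 and Prdx6, and the lipid peroxidase Gpx4 fell. The median log2 fold change over the members was -0.01, against 0.00 over all genes, with 17 members above 0 and 21 below. With no scaling factors between libraries, which moved the median of all genes to 0.13, 14 members rose and 2 fell, and the 5 named as rising and Cat and Ephx1 were among those called. In normoxia 4 members rose and 4 fell (21.1%, against 14.3% of all genes, 7.88% up and 6.46% down). With no scaling factors 8 rose and 2 fell there. Under intermittent hypoxia 1 rose and 1 fell (5.26%, against 2.88%, 1.31% up and 1.57% down). Without the 4 libraries highest in muscle markers, which leaves 2 Sham_Nx and 3 ORX_IH mice, Ephx1 kept its call in normoxia, Cat, Pgd, Ephx1, Abcc3 and Abcc4 kept theirs averaged over both exposures, and none was kept under intermittent hypoxia. Without the 3 libraries highest in pancreatic markers Cat, Pgd and Abcc4 kept their calls in normoxia, the same 5 with Nqo1 and Sod3 averaged, and again none under intermittent hypoxia.

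Intermittent hypoxia was likewise compared after each operation and averaged over both. Averaged over both operations, 4 members fell and none rose (10.5%, against 4.53% of all genes, of which 1.96% rose and 2.57% fell). The 4 were Nfe2l2 itself, Ephx1, Ugdh and Gpx4, and none of these calls was kept without the muscle-rich or without the pancreas-rich libraries, where Nfe2l2 was at -0.21 and -0.18 (edgeR BH-adjusted p = 0.139 and 0.0674). The member median was -0.08, against 0.00 over all genes, and 28 of the 38 log2 fold changes were negative. That median was -0.04 without the muscle-rich and -0.04 without the pancreas-rich libraries. Within each operation the edgeR test called no member, against 0.303% of all genes after sham operation and 0.0742% after orchiectomy. In each of these comparisons 8 members had an unadjusted p under 0.05, against 13.1% of all genes after sham operation and 17.1% after orchiectomy, and DESeq2 called 1 member after sham operation and 3 after orchiectomy. The interaction of the operations and exposures called none of the 38 members and none of the 16164 genes in edgeR, with 1 member (Abcc4) at an unadjusted p under 0.05, against 6.34% of all genes, and none called by DESeq2.

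Among the regulators, Nfe2l2 was lower under intermittent hypoxia. It measured 69.9, 72.8, 69.6 and 76.7 CPM in Sham_Nx and 60.9, 65.6, 67.1, 69.6 and 63.7 in Sham_IH. After orchiectomy it measured 69.6, 69.7, 73.9, 74.5 and 70.9 CPM in ORX_Nx and 60.7, 58.2, 53.7, 64.9 and 62.3 in ORX_IH. All 5 ORX_IH libraries lay below all 5 ORX_Nx libraries, and in the sham groups only Sham_IH 4, level with the lowest Sham_Nx library, reached the Sham_Nx range. Nfe2l2 fell under intermittent hypoxia averaged over both operations (log2 fold change -0.20 ± 0.04 SE, edgeR BH-adjusted p = 0.00898). The difference was -0.14 ± 0.06 after sham operation (BH-adjusted p = 0.258) and -0.26 ± 0.05 after orchiectomy (BH-adjusted p = 0.0506). Orchiectomy did not pass the test for Nfe2l2 in either exposure (-0.01 ± 0.06 in normoxia, BH-adjusted p = 0.926, and -0.13 ± 0.05 under intermittent hypoxia, BH-adjusted p = 0.218).

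Keap1, the adaptor that marks NRF2 for degradation, did not pass in any comparison. Its levels were 60.4, 59.8, 60.9 and 58.6 CPM in Sham_Nx and 59.3, 67.3, 65.7, 60.3 and 55.5 in Sham_IH, and 59.4, 67.5, 62.0, 59.5 and 53.4 in ORX_Nx and 62.7, 62.9, 62.8, 60.5 and 65.9 in ORX_IH. The groups overlapped in every comparison, and the averaged differences were 0.02 ± 0.04 for orchiectomy (95% interval -0.06 to 0.10) and 0.05 ± 0.04 for intermittent hypoxia (-0.03 to 0.13).

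Of 15 other NRF2 regulators, all tested, 1 rose and 1 fell after orchiectomy in normoxia, where 7.88% of all genes rose and 6.46% fell, so the count was close to the share over all genes. They were Ppargc1a, a coactivator of metabolic and antioxidant genes (log2 fold change 0.82 ± 0.17 SE, edgeR BH-adjusted p = 0.00544), and Dpp3, a KEAP1-binding peptidase (-0.27 ± 0.07, 0.0209). Averaged over both exposures 1 rose and 2 fell (11.8% and 10.1% of all genes), with Sqstm1, the autophagy receptor that sequesters KEAP1, at -0.24 ± 0.07 (edgeR BH-adjusted p = 0.0211). None of the 15 passed in any comparison of intermittent hypoxia with normoxia.

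**Figure D2:**
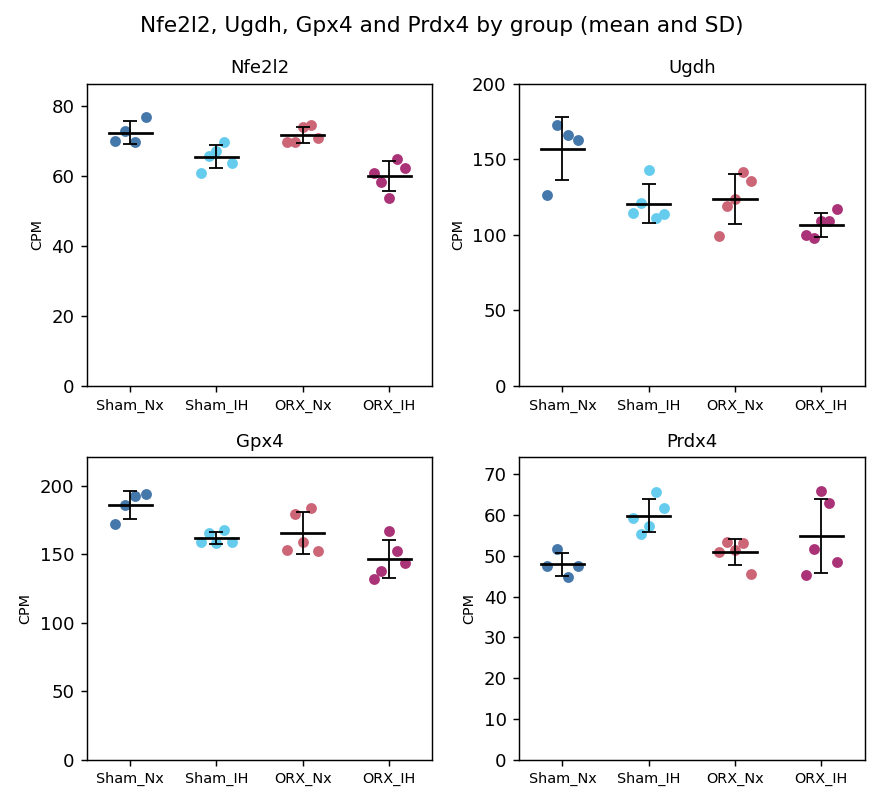
CPM of Nfe2l2, Ugdh, Gpx4 and Prdx4 in each library (points) by group, with the group mean and SD (lines and bars) on axes that start at 0. The 5 ORX_IH points of Nfe2l2 lie between 53.7 and 64.9, below the 5 ORX_Nx points between 69.6 and 74.5.

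In glutathione synthesis and recycling, 1 of 5 members fell after orchiectomy averaged over both exposures and the other 4 did not pass. Gclm, the modifier subunit of glutamate-cysteine ligase, measured 217, 249.6, 227 and 261 CPM in Sham_Nx and 213, 219, 224, 227 and 220.2 in Sham_IH. In the orchiectomized mice Gclm measured 207, 222, 223, 213 and 174 CPM in ORX_Nx and 175, 195, 225, 172 and 199 in ORX_IH. The groups overlapped, the lowest values were those of ORX_Nx 5, ORX_IH 1 and ORX_IH 4, and Gclm fell by a small amount (log2 fold change -0.20 ± 0.06 SE, edgeR BH-adjusted p = 0.0224). That call was lost without Sham_Nx 5, and without ORX_Nx 4 and ORX_Nx 5 together.

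Gclc, the catalytic subunit of the same ligase, was spread more widely. It measured 319.6, 371, 364 and 397 CPM in Sham_Nx, 266, 339.9, 319, 252 and 298 in Sham_IH, 253, 300.2, 355, 372 and 178 in ORX_Nx and 231, 244, 356, 241 and 323 in ORX_IH. ORX_Nx 5 was the lowest library and each other group overlapped with Sham_Nx, and the averaged differences of Gclc (-0.20 ± 0.12 for orchiectomy, -0.18 ± 0.12 for intermittent hypoxia) did not pass the edgeR test (BH-adjusted p = 0.253 and BH-adjusted p = 0.408).

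Slc7a11, which imports the cystine from which glutathione is made, was close to the detection limit in liver. It measured 0.284, 0.532, 0.323 and 0.415 CPM in Sham_Nx, 0.467, 0.298, 0.220, 0.497 and 0.746 in Sham_IH, 0.569, 0.637, 0.715, 0.906 and 1.34 in ORX_Nx and 0.591, 0.387, 0.579, 0.302 and 1.26 in ORX_IH. Every ORX_Nx library lay above every Sham_Nx library, with the highest value in ORX_Nx 5, but the difference in normoxia did not pass (log2 fold change 1.08 ± 0.41 SE, edgeR BH-adjusted p = 0.0811). DESeq2 called Slc7a11 after orchiectomy in normoxia and averaged over both exposures. The glutathione synthetase Gss (61.7 ± 4.92 CPM in Sham_Nx and 66.3 ± 7.59 CPM in ORX_Nx) and the glutathione reductase Gsr (89.9 ± 5.93 CPM and 76.5 ± 3.59 CPM) did not pass in any comparison. Gsr was lower in every ORX_Nx library than in every Sham_Nx library (log2 fold change -0.23 ± 0.09 SE, edgeR BH-adjusted p = 0.0767).

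The thioredoxin system showed small differences. Txnrd1, the cytosolic thioredoxin reductase, measured 162, 164, 169 and 163 CPM in Sham_Nx and 139.7, 147.3, 154.1, 138.3 and 152.9 in Sham_IH. It measured 146.04, 134.6, 133.3, 164 and 129.2 CPM in ORX_Nx and 141.6, 125.3, 149.7, 127.2 and 151.2 in ORX_IH. Every Sham_IH library lay below every Sham_Nx library, and ORX_Nx 4 was the only orchiectomized library within the Sham_Nx range. Txnrd1 fell after orchiectomy averaged over both exposures (log2 fold change -0.15 ± 0.05 SE, edgeR BH-adjusted p = 0.0442), a call near the threshold that 19 of 30 alternative analyses did not make. Under intermittent hypoxia after sham operation the difference was -0.17 ± 0.07 and did not pass (BH-adjusted p = 0.323).

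Srxn1, the sulfiredoxin that repairs overoxidized peroxiredoxins, measured 63.6, 78.1, 95.2 and 66.1 CPM in Sham_Nx and 50.0, 61.7, 74.5, 42.7 and 57.7 in Sham_IH. After orchiectomy Srxn1 measured 47.4, 49.0, 48.9, 57.8 and 66.6 CPM in ORX_Nx and 62.3, 52.0, 50.4, 36.8 and 73.6 in ORX_IH. Sham_Nx had the highest mean, the other groups were alike and all overlapped, and no comparison passed in the main analysis (orchiectomy in normoxia log2 fold change -0.49 ± 0.18 SE, edgeR BH-adjusted p = 0.0745). DESeq2 called Srxn1 after orchiectomy in normoxia. Thioredoxin itself, Txn1, lay between 117.3 ± 14.5 CPM in ORX_IH and 121.6 ± 8.25 CPM in ORX_Nx, and the mitochondrial reductase Txnrd2 between 25.1 ± 2.50 CPM in ORX_IH and 29.4 ± 2.01 CPM in Sham_IH. Neither passed in any comparison.

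Among the 6 peroxiredoxins, which reduce hydrogen peroxide with electrons from thioredoxin or glutathione, 2 fell after orchiectomy averaged over both exposures. Prdx5 measured 134.1, 131.7, 150.05 and 132.96 CPM in Sham_Nx and 136.7, 133.5, 147.04, 148.2 and 131.3 in Sham_IH. It measured 97.7, 135.4, 110.02, 110.1 and 100.9 CPM in ORX_Nx and 105.8, 120.4, 130.2, 149.1 and 108.2 in ORX_IH. In normoxia only ORX_Nx 2 reached the Sham_Nx range, and in the ORX_IH group only ORX_IH 4 was above the Sham_IH values. Prdx5 fell in normoxia (log2 fold change -0.31 ± 0.10 SE, edgeR BH-adjusted p = 0.0452) and averaged over both exposures (log2 fold change -0.25 ± 0.07 SE, edgeR BH-adjusted p = 0.0162), and the call in normoxia was lost in 19 of 31 alternatives. Prdx6, the 1-cysteine peroxiredoxin, fell averaged over both exposures (log2 fold change -0.18 ± 0.06 SE, edgeR BH-adjusted p = 0.0440), from 433 ± 14.9 CPM in Sham_Nx and 397 ± 26.5 CPM in Sham_IH to 386 ± 50.8 CPM and 349 ± 27.2 CPM, a call lost in 20 of 30 alternatives.

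The other 4 peroxiredoxins did not pass in any comparison. Prdx4, the peroxiredoxin of the endoplasmic reticulum, measured 47.5, 51.6, 44.9 and 47.5 CPM in Sham_Nx and 59.3, 55.3, 57.3, 65.6 and 61.7 in Sham_IH, so that every Sham_IH library lay above every Sham_Nx library. This was the only member higher without overlap under intermittent hypoxia, and its difference after sham operation did not pass (log2 fold change 0.32 ± 0.09 SE, edgeR BH-adjusted p = 0.136). In the orchiectomized mice it measured 50.9, 53.4, 51.4, 53.1 and 45.5 CPM in ORX_Nx and 45.2, 51.6, 65.9, 63.0 and 48.4 in ORX_IH, which overlapped. Over the 4 groups, Prdx1 means ran from 676 CPM in ORX_IH to 729 in Sham_Nx, Prdx2 from 64.9 CPM in ORX_IH to 73.8 in Sham_IH and Prdx3 from 87.4 CPM in Sham_Nx to 95.2 in ORX_Nx. Reads were assigned per transcript, and the copies of members in the table (Prdx1-ps, Prdx2-ps1, Prdx6b, Txn-ps1, Gpx4-ps1, Gpx4-ps2) held at most 0.171% of the counts of their parent gene.

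Of the glutathione peroxidases, Gpx4, which reduces lipid hydroperoxides in membranes, was lower after each treatment. It measured 172, 186, 193 and 194 CPM in Sham_Nx and 159.03, 166, 158.6, 168 and 158.97 in Sham_IH. In the orchiectomized mice Gpx4 measured 152.9, 179.7, 158.8, 184 and 152.5 CPM in ORX_Nx and 132.4, 137.8, 167, 152.6 and 143.5 in ORX_IH. Every Sham_IH library lay below every Sham_Nx library, while the orchiectomized groups overlapped with each other. Gpx4 fell under intermittent hypoxia averaged over both operations (log2 fold change -0.19 ± 0.05 SE, edgeR BH-adjusted p = 0.0416) and after orchiectomy averaged over both exposures (log2 fold change -0.16 ± 0.05 SE, edgeR BH-adjusted p = 0.0322). The first call was lost in 17 of 30 alternatives and the second in 11.

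Gpx1 did not pass in any comparison. It measured 1171, 1083, 1131 and 1109 CPM in Sham_Nx, 1111, 1084, 1026, 1303 and 1120.0 in Sham_IH, 1135, 1200.4, 1002, 1136 and 634 in ORX_Nx and 802, 962, 1193, 1078 and 892 in ORX_IH. ORX_Nx 5 was far below the others, and the averaged orchiectomy difference was -0.17 ± 0.10 (BH-adjusted p = 0.256). The plasma-type peroxidase Gpx3 measured 15.3 CPM in ORX_IH 1 and at most 8.46 in any other library. Gpx2 had 160 counts in ORX_IH 1 and at most 19 in any other library, with 0 in some libraries of the Sham_Nx, Sham_IH and ORX_IH groups. ORX_IH 1 was also the library with the highest muscle and adipocyte marker sums, 960.0 and 26.5 CPM, and their part in these values was not tested.

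Catalase, the haem enzyme of peroxisomes that splits hydrogen peroxide, was lower in every orchiectomized library than in every sham-operated library. Cat measured 2819, 2495, 2568 and 2747 CPM in Sham_Nx and 2645, 2421, 2787, 2613 and 2581 in Sham_IH. It measured 1823, 2189, 2087, 1942 and 1220.1 CPM in ORX_Nx and 1749, 1877, 2056, 2209 and 1934 in ORX_IH. The lowest sham value, 2421 CPM in Sham_IH 2, lay above the highest orchiectomized value, 2209 CPM in ORX_IH 4, and of the 38 members Cat was the only one so separated over all 4 groups, against 1.60% of all genes. Cat fell averaged over both exposures (log2 fold change -0.46 ± 0.09 SE, edgeR BH-adjusted p = 0.00151) and in normoxia (log2 fold change -0.52 ± 0.13 SE, edgeR BH-adjusted p = 0.0133), and under intermittent hypoxia the difference was -0.41 ± 0.12 and did not pass (BH-adjusted p = 0.0804). The interaction was 0.11 ± 0.18 (95% interval -0.24 to 0.46), and intermittent hypoxia itself did not pass (averaged 0.03 ± 0.09, interval -0.14 to 0.20). The averaged call of Cat held in all 30 alternatives, and the call in normoxia was lost when only Sham_Nx and ORX_Nx were fitted and without the 4 libraries highest in muscle markers (log2 fold change -0.53 in both, BH-adjusted p = 0.0748 and 0.102 in edgeR).

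Of the superoxide dismutases, which turn superoxide into hydrogen peroxide, only Sod3 passed. Sod3, the extracellular enzyme, measured 27.2, 21.0, 22.1 and 22.4 CPM in Sham_Nx and 21.6, 23.4, 18.3, 25.4 and 24.9 in Sham_IH. It measured 27.2, 25.2, 29.1, 47.3 and 46.0 CPM in ORX_Nx and 24.6, 29.7, 22.3, 29.6 and 28.2 in ORX_IH. ORX_Nx 4 and ORX_Nx 5 were far above the rest, and the other ORX_Nx libraries were close to the upper end of Sham_Nx. Sod3 rose in normoxia (log2 fold change 0.59 ± 0.17 SE, edgeR BH-adjusted p = 0.0283) and averaged over both exposures (log2 fold change 0.42 ± 0.12 SE, edgeR BH-adjusted p = 0.0171). Without ORX_Nx 4 and ORX_Nx 5 the difference in normoxia was 0.23 and did not pass (BH-adjusted p = 0.262 in edgeR), and the averaged one was 0.24 (0.0444). Leaving out any 1 of Sham_Nx 3, Sham_Nx 4, Sham_Nx 5, ORX_Nx 4 and ORX_Nx 5 also ended the call in normoxia.

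Sod2, the manganese enzyme of mitochondria, showed no difference that passed. It measured 156.7, 163, 155.9 and 167 CPM in Sham_Nx, 147.1, 151.4, 154.7, 164 and 151.9 in Sham_IH, 171, 181, 164, 164 and 126.4 in ORX_Nx and 140.6, 149.1, 162, 158.5 and 152.04 in ORX_IH. All groups overlapped, ORX_Nx 5 was the lowest library, and the 95% interval of the averaged orchiectomy difference was -0.11 to 0.10. With no scaling factors it was 0.12 and passed (edgeR BH-adjusted p = 0.0345), under a setting that moved the median of all genes to 0.13. Sod1 (554 ± 4.57 CPM in Sham_Nx and 559 ± 124.8 CPM in ORX_Nx) did not pass in any comparison.

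**Figure D3:**
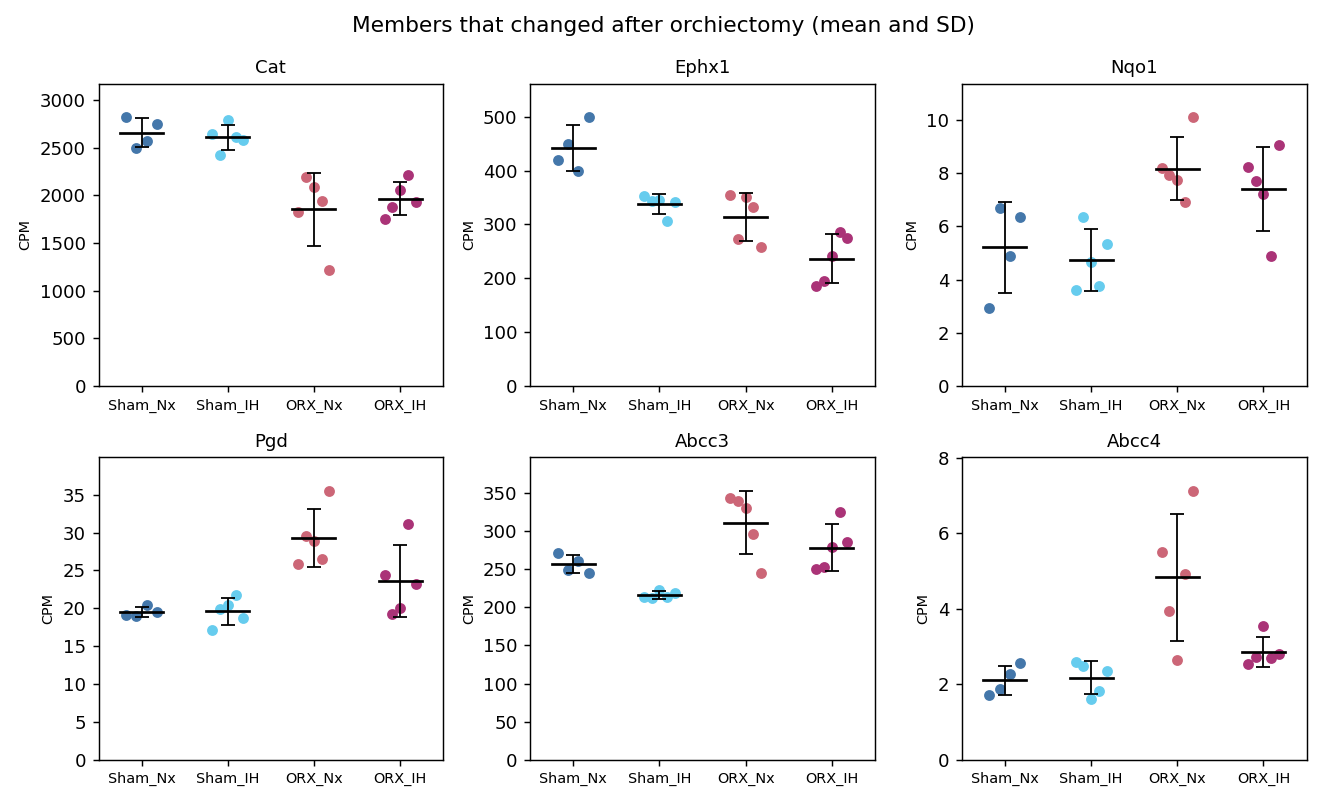
CPM of Cat, Ephx1, Nqo1, Pgd, Abcc3 and Abcc4 in each library (points) by group, with the group mean and SD (lines and bars) on axes that start at 0. All Cat points of both ORX groups lie at or below 2209, under all sham points, which start at 2421.

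Of the 4 members of the pentose phosphate pathway, a source of NADPH, Pgd was the 1 that rose. Pgd, phosphogluconate dehydrogenase, measured 19.1, 19.0, 20.5 and 19.5 CPM in Sham_Nx and 17.1, 19.9, 20.5, 21.7 and 18.7 in Sham_IH. It measured 25.8, 29.5, 28.9, 26.5 and 35.5 CPM in ORX_Nx and 24.4, 19.2, 20.0, 31.1 and 23.2 in ORX_IH. Every ORX_Nx library lay above every Sham_Nx library, and the ORX_IH libraries overlapped with Sham_IH. Pgd rose in normoxia (log2 fold change 0.58 ± 0.12 SE, edgeR BH-adjusted p = 0.00482) and averaged over both exposures (log2 fold change 0.42 ± 0.08 SE, edgeR BH-adjusted p = 0.00163), while under intermittent hypoxia the difference was 0.27 ± 0.11 and did not pass (BH-adjusted p = 0.219). The difference between these effects was not called (interaction -0.31 ± 0.16, BH-adjusted p = 0.789), and the averaged call held in all 30 alternatives. G6pdx, the first enzyme of the pathway, ranged from 4.50 to 12.7 CPM and was highest in ORX_IH 4 and ORX_Nx 5. Its averaged orchiectomy difference (log2 fold change 0.41 ± 0.16 SE, edgeR BH-adjusted p = 0.0786) did not pass, nor did those of the transketolase Tkt (log2 fold change 0.23 ± 0.10 SE, edgeR BH-adjusted p = 0.109) and the transaldolase Taldo1 (log2 fold change -0.10 ± 0.07 SE, edgeR BH-adjusted p = 0.321). ORX_IH 4 was the highest of its group for G6pdx, Pgd, Taldo1 and Tkt alike.

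The quinone reductase Nqo1, a common indicator gene of NRF2, was low in these livers and higher after orchiectomy. Nqo1 measured 2.92, 6.67, 4.88 and 6.35 CPM in Sham_Nx and 3.59, 6.36, 4.65, 3.74 and 5.35 in Sham_IH. It measured 8.18, 7.94, 7.73, 6.90 and 10.1 CPM in ORX_Nx and 8.23, 7.71, 7.20, 4.88 and 9.04 in ORX_IH. All 5 ORX_Nx libraries lay above all 4 Sham_Nx libraries, and of the ORX_IH libraries only ORX_IH 4 fell within the Sham_IH range. Nqo1 rose averaged over both exposures (log2 fold change 0.64 ± 0.15 SE, edgeR BH-adjusted p = 0.00664), with differences of 0.65 ± 0.22 in normoxia (BH-adjusted p = 0.0583) and 0.64 ± 0.21 under intermittent hypoxia (BH-adjusted p = 0.112) that did not pass singly. The averaged call was lost in 1 of 30 alternatives, without the 4 libraries highest in muscle markers (0.55, BH-adjusted p = 0.0537 in edgeR).

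Hmox1, the haem oxygenase, was high in 2 libraries. It measured 20.1, 18.1, 18.8 and 16.5 CPM in Sham_Nx and 14.3, 16.8, 15.6, 11.0 and 17.3 in Sham_IH. It measured 23.6, 14.4, 14.4, 65.8 and 79.7 CPM in ORX_Nx and 23.2, 19.5, 13.4, 14.8 and 25.8 in ORX_IH. The 3 other ORX_Nx libraries lay around the Sham_Nx values, and no comparison passed in the main analysis (orchiectomy in normoxia log2 fold change 1.10 ± 0.41 SE, edgeR BH-adjusted p = 0.0775). DESeq2 called Hmox1 after orchiectomy in normoxia and averaged over both exposures. With no scaling factors edgeR called it averaged (0.88, BH-adjusted p = 0.0306). Without ORX_Nx 4 and ORX_Nx 5 the difference in normoxia was -0.08 (BH-adjusted p = 0.874 in edgeR). In the same libraries the 11 macrophage markers summed to 1121 and 732 CPM, the 18 acute phase genes to 34221 and 26134 CPM and the 8 neutrophil markers to 46.8 and 11.9 CPM, and their part in the Hmox1 and Sod3 values was not tested. The carbonyl reductases did not pass in any comparison of the main analysis: Cbr1 means ran from 83.2 CPM in Sham_Nx to 105.6 in ORX_IH, and Cbr3 from 0.379 CPM in Sham_Nx to 0.805 in ORX_Nx, with the highest Cbr3 value in ORX_Nx 5. DESeq2 called Cbr3 after orchiectomy in normoxia and averaged over both exposures.

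**Figure D4:**
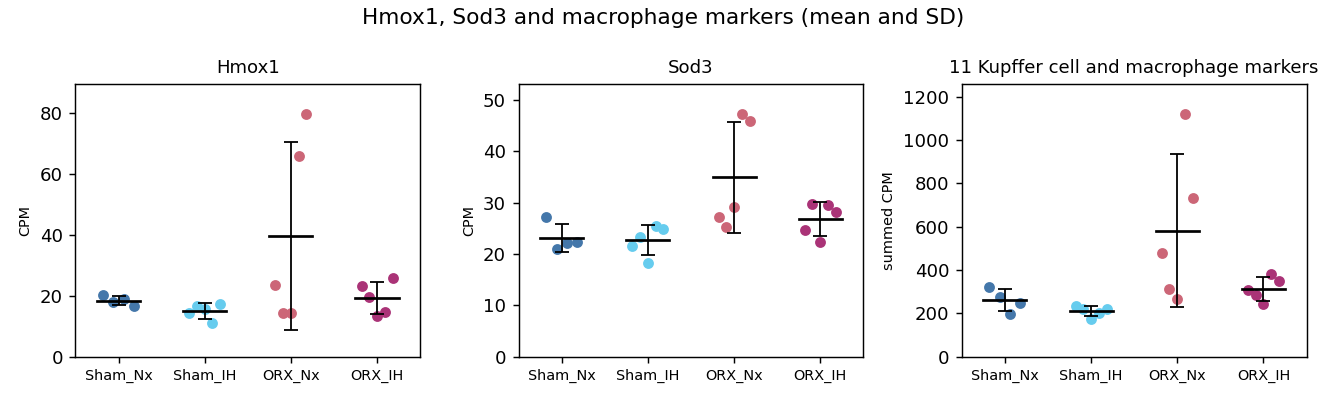
CPM of Hmox1 and Sod3 and the summed CPM of 11 Kupffer cell and macrophage markers in each library (points) by group, with the group mean and SD (lines and bars) on axes that start at 0. ORX_Nx 4 and ORX_Nx 5 are the top points of all 3 panels, at 65.8 and 79.7 for Hmox1, 47.3 and 46.0 for Sod3, and 1121 and 732 for the markers.

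Ephx1, the microsomal epoxide hydrolase, was lower after each treatment and lowest after both. It measured 420.1, 449.7, 399 and 499 CPM in Sham_Nx and 353, 344, 346, 306 and 341 in Sham_IH. It measured 354, 272, 350.0, 333 and 258 CPM in ORX_Nx and 185, 195, 241, 286 and 274 in ORX_IH. Every library of each treated group lay below every Sham_Nx library, and every ORX_IH library below every Sham_IH library. The group means were 442 ± 43.1 CPM in Sham_Nx, 338 ± 18.5 CPM in Sham_IH, 313 ± 45.2 CPM in ORX_Nx and 236 ± 45.2 CPM in ORX_IH. Ephx1 fell after orchiectomy in normoxia (log2 fold change -0.50 ± 0.13 SE, edgeR BH-adjusted p = 0.0153), under intermittent hypoxia (log2 fold change -0.52 ± 0.12 SE, edgeR BH-adjusted p = 0.0227) and averaged over both exposures (log2 fold change -0.51 ± 0.09 SE, edgeR BH-adjusted p = 6.06e-04). It also fell under intermittent hypoxia averaged over both operations (log2 fold change -0.40 ± 0.09 SE, edgeR BH-adjusted p = 0.0165), with differences of -0.39 ± 0.13 after sham operation and -0.41 ± 0.12 after orchiectomy that did not pass singly (BH-adjusted p = 0.174 and BH-adjusted p = 0.101). The interaction was -0.02 ± 0.17 (95% interval -0.36 to 0.32). The call in normoxia was lost in 4 of 31 alternatives. These were without Sham_Nx 5, with library numbers 1 to 16 only (without mouse 5 of every group), and without ORX_Nx 4 and ORX_Nx 5. The last was without the 3 libraries highest in pancreatic markers. The call under intermittent hypoxia was lost in 6 of 31. These were without any 1 of Sham_IH 1, Sham_IH 3, ORX_IH 1 and ORX_IH 2, and without the muscle-rich or the pancreas-rich libraries. The averaged orchiectomy call of Ephx1 held in all 30 alternatives, and the averaged intermittent hypoxia call was lost in 2, without the 4 libraries highest in muscle markers and without the 3 highest in pancreatic markers (BH-adjusted p = 0.175 and 0.0825 in edgeR).

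Ugdh, which makes the UDP-glucuronate used in conjugation, measured 126.5, 173, 166 and 163 CPM in Sham_Nx and 114.3, 121.4, 143.2, 110.9 and 113.9 in Sham_IH. It measured 99.4, 119.4, 123.5, 141.4 and 135.6 CPM in ORX_Nx and 99.9, 97.7, 109.3, 109.3 and 117.5 in ORX_IH. Apart from Sham_Nx 2 the Sham_Nx libraries were the highest of all, and the ORX_IH group had the lowest mean. Ugdh fell after orchiectomy in normoxia (log2 fold change -0.34 ± 0.11 SE, edgeR BH-adjusted p = 0.0362) and averaged over both exposures (log2 fold change -0.26 ± 0.07 SE, edgeR BH-adjusted p = 0.0162), and under intermittent hypoxia averaged over both operations (log2 fold change -0.30 ± 0.07 SE, edgeR BH-adjusted p = 0.0284). The call in normoxia was lost in 12 of 31 alternatives (log2 fold change -0.21 to -0.46 over all 31), among them leaving out any 1 of Sham_Nx 3, Sham_Nx 4, Sham_Nx 5, ORX_Nx 1, ORX_Nx 2 and ORX_Nx 3. The last of these 3 calls was lost in 8 of 30 alternatives, among them without ORX_Nx 4 and ORX_Nx 5 (-0.24, BH-adjusted p = 0.0709 in edgeR). With no scaling factors the averaged orchiectomy difference of Ugdh was -0.13 and did not pass (0.221).

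The exporters of conjugates on the basolateral membrane of hepatocytes rose after orchiectomy. Abcc3 measured 271, 249, 261 and 245 CPM in Sham_Nx and 213, 212, 223, 214 and 219 in Sham_IH. It measured 344, 340.2, 331, 296 and 245 CPM in ORX_Nx and 249.9, 253, 279, 325 and 286 in ORX_IH. In normoxia ORX_Nx 5 alone fell within the Sham_Nx range, and under intermittent hypoxia every ORX_IH library lay above every Sham_IH library. Abcc3 rose in normoxia (log2 fold change 0.28 ± 0.09 SE, edgeR BH-adjusted p = 0.0479), under intermittent hypoxia (log2 fold change 0.37 ± 0.09 SE, edgeR BH-adjusted p = 0.0254) and averaged over both (log2 fold change 0.32 ± 0.06 SE, edgeR BH-adjusted p = 0.00173). Every Sham_IH library lay below every Sham_Nx library, but the averaged intermittent hypoxia difference did not pass (log2 fold change -0.20 ± 0.06 SE, edgeR BH-adjusted p = 0.0696). The averaged orchiectomy call held in all 30 alternatives, while that in normoxia was lost in 23 of 31 and that under intermittent hypoxia in 8 of 31.

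Abcc4 measured 1.72, 1.87, 2.28 and 2.56 CPM in Sham_Nx and 2.59, 2.49, 1.62, 1.81 and 2.36 in Sham_IH. It measured 5.51, 3.95, 2.65, 4.93 and 7.12 CPM in ORX_Nx and 2.54, 2.71, 3.54, 2.70 and 2.80 in ORX_IH. Every ORX_Nx library lay above every Sham_Nx library, and ORX_IH overlapped with both Sham_IH and ORX_Nx. Abcc4 rose in normoxia by 2.28-fold (log2 fold change 1.19 ± 0.23 SE, edgeR BH-adjusted p = 0.00299), the largest change among the members called there, and averaged over both exposures (log2 fold change 0.79 ± 0.16 SE, edgeR BH-adjusted p = 0.00183), a call that held in all 30 alternatives. Under intermittent hypoxia the difference was 0.39 ± 0.21 and did not pass (BH-adjusted p = 0.360), and the difference between both effects was not called (interaction -0.80 ± 0.31, 95% interval -1.40 to -0.19, BH-adjusted p = 0.739). Osgin1, an oxidative stress-induced growth inhibitor, ranged from 40.2 CPM in ORX_Nx 5 to 272 CPM in ORX_Nx 4 and did not pass in any comparison.

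The effect of orchiectomy could be set side by side in both exposures, which share no library. All 8 members called in normoxia had a difference of the same sign under intermittent hypoxia, as had 95.6% of the 2319 genes called in normoxia. Over all members, called or not, 31 of 38 (81.6%) had the same sign, against 72.5% of all genes tested. In normoxia 7 members did not overlap between the groups, against 12.3% of all genes, namely Abcc4, Nqo1, Pgd and Slc7a11 (higher) and Cat, Ephx1 and Gsr (lower). Under intermittent hypoxia 3 did not overlap, Cat, Ephx1 and Abcc3, against 5.85%. Intermittent hypoxia separated 5 members after sham operation (Prdx4 higher, and Txnrd1, Gpx4, Ephx1 and Abcc3 lower), against 8.51% of all genes, and 1 after orchiectomy (Nfe2l2 lower), against 2.30%.

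**Figure D5:**
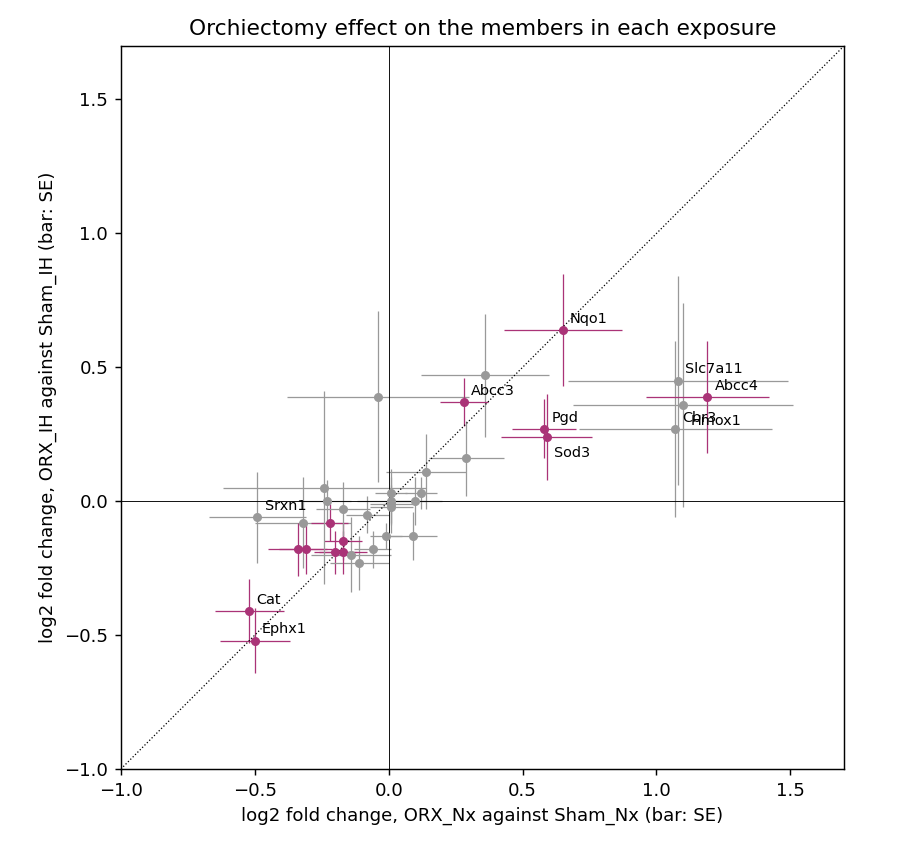
Log2 fold change of each member after orchiectomy in normoxia (horizontal axis) and under intermittent hypoxia (vertical axis), with bars of 1 SE, the line of equal effects dotted, and members called averaged over both exposures in purple. Gpx2, whose counts lay mostly in ORX_IH 1, is not drawn. Cat and Ephx1 lie near the dotted line at the lower left, Nqo1 lies near it at the upper right, and Abcc4 lies below it at 1.19 in normoxia and 0.39 under intermittent hypoxia.

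Other NRF2 targets and redox enzymes, a list of 44 genes of which 42 were tested, moved in both directions after orchiectomy. In normoxia 6 rose and 6 fell (7.88% and 6.46% of all genes), with a median of -0.02. Those with the largest changes were the carboxylesterase Ces1g (1.11 ± 0.27), the coumarin hydroxylase Cyp2a5 (0.90 ± 0.30), the peroxidase Gpx7 (0.85 ± 0.23), the aldo-keto reductase Akr1b8 (0.68 ± 0.19), the aldehyde oxidase Aox1 (-0.67 ± 0.13) and the glutaredoxin Glrx (-0.62 ± 0.15), all log2 ± SE with edgeR BH-adjusted p from 0.00408 to 0.0495. Averaged over both exposures 8 rose and 8 fell (11.8% and 10.1% of all genes), among them the gamma-glutamyl cyclotransferase Ggct (0.45 ± 0.07, edgeR BH-adjusted p = 3.71e-04). Under intermittent hypoxia averaged over both operations none rose and 5 fell (1.96% and 2.57% of all genes): the thioredoxin inhibitor Txnip (-0.61 ± 0.11), the sestrins Sesn2 (-0.45 ± 0.09) and Sesn3 (-0.26 ± 0.05), the ferritin light chain Ftl1 (-0.27 ± 0.07) and the aldehyde reductase Akr1a1 (-0.20 ± 0.05). Reads of Aox1 and its neighbouring paralog Aox3, and of the Ces1 and Cyp2a families, can be split between related genes, so these values are less certain. Such sharing was not tested.

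Of 18 genes of oxidant sources, 15 were tested, and after orchiectomy in normoxia 5 rose and 3 fell (7.88% and 6.46% of all genes). Among those that rose were subunits of the phagocyte NADPH oxidase: Cybb (1.25 ± 0.38), Ncf4 (1.24 ± 0.38), Cyba (1.09 ± 0.28) and Ncf1 (1.02 ± 0.28), with edgeR BH-adjusted p from 0.0183 to 0.0358. They moved beside the macrophage markers given above, whose part was not tested. The aldehyde oxidase Aox3 fell after orchiectomy in normoxia (-1.08 ± 0.27) and under intermittent hypoxia (-1.47 ± 0.26). In the latter the oxidase Nox4 (-0.96 ± 0.19) and the peroxisomal glycolate oxidase Hao1 (-0.83 ± 0.17) fell too. Averaged over both exposures Hao1 (-0.89 ± 0.13) and Nox4 (-0.84 ± 0.14) also fell (edgeR BH-adjusted p = 1.00e-04 and 4.54e-04). Their means were lower in ORX_Nx (Hao1 108.7, Nox4 22.0 CPM) than in Sham_Nx (210.5 and 36.2 CPM). Under intermittent hypoxia averaged over both operations Ncf1 fell (-0.67 ± 0.19, BH-adjusted p = 0.0465), and no other oxidant source passed.

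ORX_Nx 5 was the lowest of its group for 18 of the 38 members, against 27.8% of all genes, and the members made up 0.681% of its counts. This library also had the lowest hepatocyte marker sum of all 19 (68472 CPM) and the highest sums of the lymphocyte (18.1), stellate cell (351) and cholangiocyte markers (59.8), whose part in the low member values was not tested. The authors' deposited table gives each gene 1 q-value over groups, which was under 0.05 for 8 members: Ephx1 (0.00621), Nfe2l2 (0.0150), Abcc3 (0.0162), Abcc4 (0.0225), Pgd (0.0259), Cat (0.0294), Ugdh (0.0430) and Gpx4 (0.0440). All 8 were also called in at least 1 comparison here. The other called members had q-values above 0.05: Nqo1 (0.111), Prdx5 (0.128), Txnrd1 (0.145), Sod3 (0.164), Gclm (0.164) and Prdx6 (0.181). The deposited values describe the same libraries, so they are not an independent check.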

How the data were processed

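Libraries came from poly(A)-selected liver RNA, made with a directional kit per the labels' protocols. The submitters' processing notes name kallisto 0.46.1 for quantification, bcl2fastq 2.20 and fastp 0.23.2 for the reads, MultiQC 1.12 and FastQC 0.11.9 for quality, and GRCm39 as the build; no annotation is named there. The authors deposited estimated counts per gene (expected counts, 27.5% of values not whole, rounded here) with a mean length per gene, and log2 expression values with an F-statistic (a score), a p-value and a q-value per gene. How the deposited log2 values were normalized is not stated; their median distance from log2 RPKM computed here was 0.0760 over 12322 genes. The table held 19 of 20 labelled mice; Sham_Nx mouse 1 is not analysed here.

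Genes passing edgeR's filterByExpr (minimum count 10) were scaled by TMM and fitted over all 4 groups with the quasi-likelihood model of edgeR 4.0.16 (R 4.3.3), with 7 contrasts and BH adjustment over all 16164 genes at 0.05. SEs come from the fold change and its F, and 95% intervals from the normal quantile. These intervals are somewhat too narrow, so one can exclude 0 where the F-test does not pass. Tkt after orchiectomy in normoxia has 0.01 to 0.58 with an unadjusted p of 0.0553 in edgeR's F-test. CPM use TMM library sizes. Members and lists were chosen with earlier results of these data known. Values in every library were given for members called in any contrast (at most 12, smallest adjusted p first) and for Nfe2l2, Keap1, Nqo1, Gclc, Srxn1, Txnrd1, Hmox1, Slc7a11, Cat, Sod2 and Gpx1; Prdx4 was added after its values were seen. Alternatives used DESeq2 1.42.0, limma 3.58.1 (voom, and trend on the deposited log2 values), other scalings, no filter, a replicate block, fewer libraries and 1 library left out at a time; 3 sets without libraries rich in muscle, pancreatic or acute phase genes were chosen after the data were seen. The model was tested on simulated counts. Markers of hepatocytes, muscle, pancreas, macrophages, neutrophils, erythroid cells, lymphocytes, stellate cells, endothelium, cholangiocytes and adipocytes were summed per library. Libraries within groups differed beyond counting noise (chi-square per degree of freedom 18.5 to 186), so each counts once. The labels name 1 mouse per library. The values of 1 gene of the oxidant source list are not reported here.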

Additional observations from a re-analysis of the deposited data

Results flagged for a closer look

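For each member and group, the gap between the most extreme library and its nearest neighbour was compared with the range of the group (Dixon's test at 95%). Of 152 such sets 9 passed, about what a rate of 0.05 would give. In Sham_Nx, Prdx1 was low in Sham_Nx 2 (649 CPM, the others 754 to 757), Prdx5 was high in Sham_Nx 4 (150.05, the others 131.7 to 134.1) and G6pdx was low in Sham_Nx 4 (4.99, the others 6.17 to 6.40). In Sham_IH, library Sham_IH 4 was high for Gss (69.3, the others 59.3 to 61.1) and low for Ephx1 (306, the others 341 to 353). In ORX_Nx, Txnrd2 was low in ORX_Nx 5 (18.0, the others 26.8 to 29.9) and Osgin1 was high in ORX_Nx 4 (272, the others 40.2 to 97.2). In ORX_IH, Gpx2 was high in ORX_IH 1 (2.31, the others 0 to 0.248) and Abcc4 was high in ORX_IH 3 (3.54, the others 2.54 to 2.80).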

How the results depend on the processing

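Of 27 called gene and contrast pairs none changed sign in the 31 alternatives tried, and the averaged orchiectomy calls of Cat, Pgd, Ephx1, Abcc3 and Abcc4 held in all 30 that apply to that contrast. The number of members called after orchiectomy in normoxia was 8, and it was 14 with DESeq2, 4 with library numbers 1 to 16 only, 3 with only the groups compared, 1 without the 4 libraries highest in muscle markers, 3 without the 3 highest in pancreatic markers, and 3 to 11 with 1 library left out (lowest without Sham_Nx 5). Library numbers 1 to 16 leave out mouse 5 of every group and run in blocks by group. An effect of library order within them cannot be told apart from the groups. The counts for the other comparisons follow. After orchiectomy under intermittent hypoxia the number called was 2, with 4 in DESeq2, 0 without the muscle-rich and 0 without the pancreas-rich libraries, and 0 to 3 with 1 library left out (0 without Sham_IH 1 or Sham_IH 3). Averaged over both exposures it was 13, with 8 for library numbers 1 to 16, 5 without the muscle-rich and 7 without the pancreas-rich libraries, and 9 to 16 with 1 left out. For intermittent hypoxia it was 0 after sham operation (DESeq2 1, only the groups compared 4, 0 to 0 with 1 library left out), 0 after orchiectomy (DESeq2 3, and 0 to 2), and 4 averaged (0 without the muscle-rich and 0 without the pancreas-rich libraries, and 2 to 6 with 1 left out, lowest without Sham_Nx 3, Sham_Nx 5, Sham_IH 1 or ORX_IH 2). For orchiectomy, DESeq2 added Nqo1, Hmox1, Txnrd1, Srxn1, Cbr3 and Slc7a11 in normoxia, and Nqo1 and Cat under intermittent hypoxia. Averaged over both exposures it added Hmox1, Cbr3, G6pdx and Slc7a11. For intermittent hypoxia it added Ugdh after sham operation, Nfe2l2, Ephx1 and Abcc4 after orchiectomy, and Prdx4 and Abcc3 averaged. The sets without marker-rich libraries also have fewer samples. Beyond that, the cause was not tested. With no scaling factors Sod2 turned to 0.12 after orchiectomy averaged over both exposures (from a value that rounds to 0), as the median of all genes moved to 0.13. Libraries were treated as sharing only a mouse number, not as paired: deviations of same-numbered mice correlated at a median of 0.00 (-0.20 to 0.42, 4 of 27 pairs over 0.1), as did those of other pairs (-0.28 to 0.35, 16 of 108 over 0.1). A hint of pairing in the data is that 8 of 19 libraries correlated best with one of their own number. With the replicate block the counts were 7, 1, 0, 0, 12 and 3 in the order orchiectomy in normoxia, under intermittent hypoxia, intermittent hypoxia after sham operation, after orchiectomy, and both averages. Over all genes orchiectomy in normoxia called 2319, and 422 to 3064 in the alternatives other than leaving out 1 library. Below 0.108 CPM no difference was detectable at the shallowest depth, which bears on Gpx2.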
